A study of Mus musculus with 7 samples.

Results

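The nuclear-encoded subunits of the mitochondrial respiratory chain are described here, complex by complex, in dystrophic soleus muscle. Members were all genes in the deposited table whose symbol begins with Nduf followed by a, b, c, s or v and a digit (complex I), is Sdha, Sdhb, Sdhc or Sdhd (complex II), begins with Uqcr or is Cyc1 (complex III), begins with Cox4 to Cox8 (complex IV), or begins with Atp5 (complex V). The rule found 87 of 29869 gene symbols: 37 for complex I, 4 for complex II, 10 for complex III, 19 for complex IV and 17 for complex V. It used names alone and no measured value. Of these, 82 passed the filter on low counts and were tested. Atp5g2, Cox4nb, Cox7b2 and Cox8c were listed at 0 counts in all 7 libraries, and Atp5l had 25 counts in total.

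RNA was sequenced from whole soleus, a hindlimb muscle rich in slow oxidative fibres, of mice at postnatal day 60. The mdx mutation, shared by all 7 animals, leaves muscle without dystrophin and is used as a model of Duchenne muscular dystrophy. By sample title, 4 libraries are labelled mdx (replicates 1 to 4, animals 358, 361, 373 and 375) and 3 are labelled mdx/Runx1f/f (replicates 1 to 3, animals 359, 363 and 374), a genotype with floxed alleles of Runx1, a transcription factor gene induced in damaged and denervated muscle. No Cre driver is named in the labels, so the cells in which the floxed alleles would be removed are not known here. The comparison asks, going by the title of the series, which genes respond to Runx1 in this dystrophic muscle.

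The labels conflict with one another and with Runx1 itself. The design text gives the numbers of muscles per genotype the other way round, and the description field ties most animal numbers to another sample. Runx1 stood at 274, 273, 235 and 201 normalised counts in libraries mdx 1 to 4 and at 919, 925 and 596 in mdx/Runx1f/f 1 to 3. Its log2 fold change was 1.74 ± 0.18 (SE, edgeR quasi-likelihood test, adjusted p = 0.00795), so the transcript was higher in the libraries whose label names the floxed allele. The part of the gene between the loxP sites is not given, and reads outside it would not report a deletion. The groups are therefore called by their labels throughout, and every direction below is of the libraries labelled mdx/Runx1f/f against those labelled mdx. Libraries held 16218306 to 20847902 counts, with 17460 to 18281 genes detected.

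The respiratory chain sits in the inner mitochondrial membrane. Complex I (NADH dehydrogenase) and complex II (succinate dehydrogenase) pass electrons to ubiquinone, complex III passes them to cytochrome c and complex IV (cytochrome c oxidase) to oxygen. Complexes I, III and IV pump protons, and complex V (ATP synthase) makes ATP as the protons flow back. Complex II is encoded wholly in the nucleus, while the other complexes also hold subunits encoded in mitochondrial DNA. Slow and fast oxidative fibres are rich in mitochondria, and several complex IV subunits exist as a form typical of muscle and heart and a form found in most other tissues.

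Across all 5 complexes, subunit transcripts had lower values in the libraries labelled mdx/Runx1f/f, by a similar small amount, and no single gene passed the test. The median log2 fold change over the 82 tested members was -0.38, with the middle 50% of members between -0.44 and -0.33, and the median member stood at 76.7% of its level in the libraries labelled mdx. The fold change was below 0 for 78 of 82 members, against 50.2% of the 14033 tested genes. The median over all tested genes was -0.0016. Only Cox6a1, Uqcr, Cox8a and Ndufa4l2 had a positive value, and none of those passed the test either.

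By the edgeR quasi-likelihood test 0 of 82 members were called lower and 0 higher at an adjusted p below 0.05, where 1.85% of all tested genes were called lower, 5.1% higher and 6.95% in either direction. The smallest adjusted p among members was 0.0584, for Sdhc, followed by 0.0598 for Cox7b and 0.0632 for Cox6c in the edgeR fit. At an unadjusted p below 0.05 the same fit had 54 of 82 members lower and 0 higher, against 12.4% of all tested genes lower, 17.1% higher and 29.5% in either direction. The groups did not overlap, with all 3 libraries labelled mdx/Runx1f/f below all 4 labelled mdx, for 47 of 82 members, against 13.6% of all tested genes. Members share libraries and are not independent of each other, so these counts describe the list and are not a test of it.

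The call depended on the test. DESeq2 called 28 of 82 members lower and 0 higher, where it called 5.95% of its tested genes lower. With the series of the animal number (358 to 363 or 373 to 375) as a covariate in edgeR, 15 members were called lower and 0 higher, against 4.15% of all tested genes lower. limma-voom called 0 members in either direction, with 2.05% of all tested genes lower. The authors' deposited table gives 34 of 82 members an adjusted p below 0.05, all lower, against 7.85% of the genes with an adjusted p in that table. On simulated data, in which the changed genes had a mean of at least 1000 normalised counts, the edgeR test recovered 1.49% of those shifted 1.3-fold and 77.6% of those shifted 2-fold. Several members have lower means than that. The simulation changed only 200 of 14033 genes, while 6.95% were called in the real data. The recovered shares may therefore not carry over to the members.

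**Figure D1:**
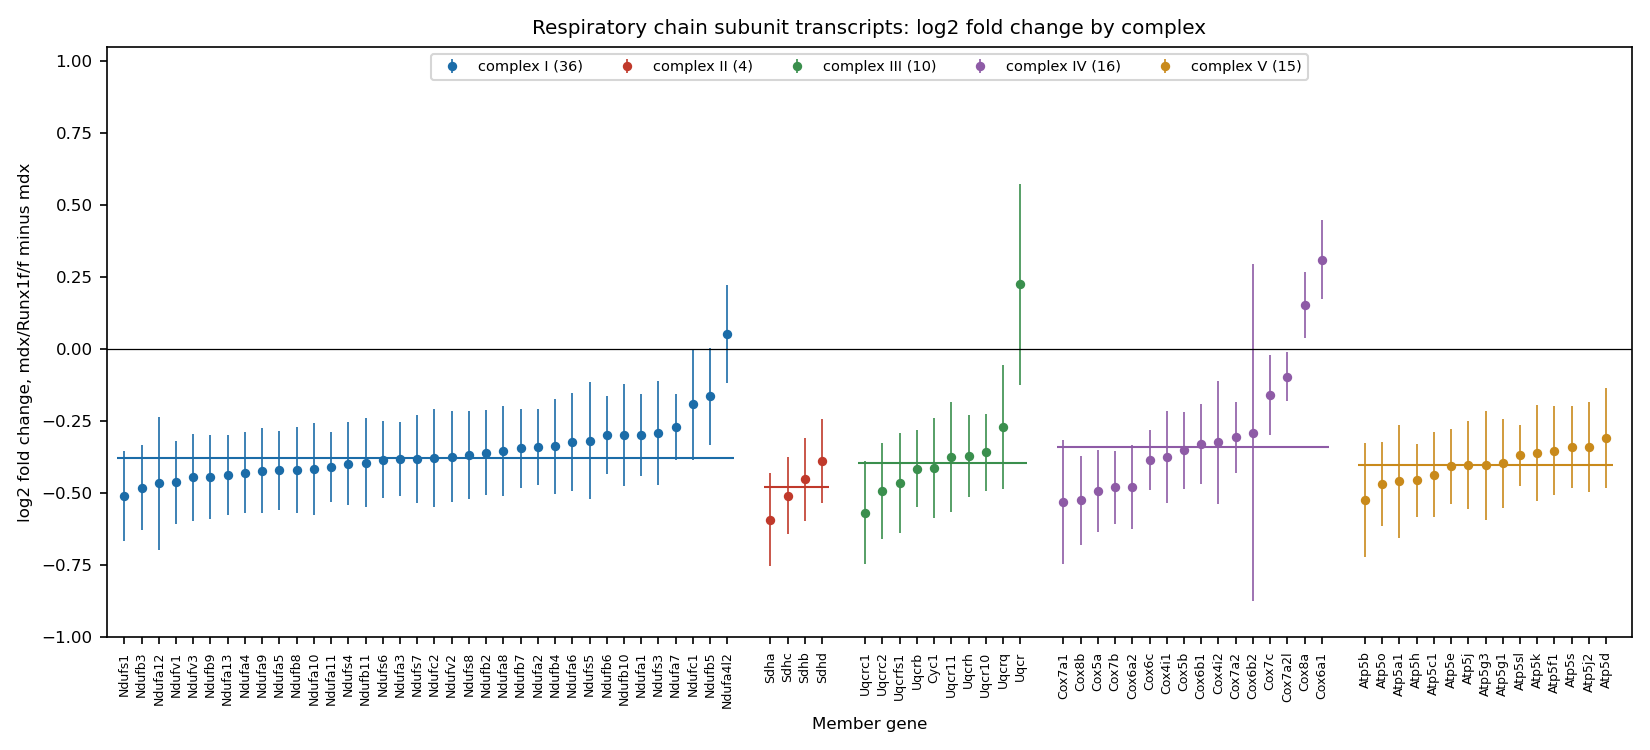
Log2 fold change of 81 of the 82 tested members (vertical axis, libraries labelled mdx/Runx1f/f minus mdx), ordered within each complex, with the standard error of the edgeR fit as a bar and the median of all tested members of the complex as a horizontal line. Nearly all points lie between -0.6 and -0.15 in every complex, and Ndufa4l2, Uqcr, Cox8a and Cox6a1 lie above 0.

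The level of the whole chain varied between libraries as well as between groups. The median deviation of the 82 members from their mean over the 7 libraries was 0.013, -0.019, 0.40 and 0.29 on the log2 scale in mdx 1 to 4, and -0.18, -0.39 and -0.07 in mdx/Runx1f/f 1 to 3. The 4 libraries labelled mdx thus split into a pair near 0 and a pair well above it, and all 3 of the others lay below every one of them. The library mdx/Runx1f/f 2 was the lowest of the 7 for 68 of 82 members, and mdx 3 was the highest for 69. By these medians of normalised counts all 5 complexes followed this order of libraries closely: mdx 3 was highest and mdx/Runx1f/f 2 lowest in each. The order depends on the scaling of the libraries. As a share of the counts of tested genes, the members made up 3.41% in mdx 3 and 3.48% in mdx 4. That share was 2.51%, 2.39% and 2.70% in mdx/Runx1f/f 1 to 3. For complex IV it was 0.339% in mdx/Runx1f/f 1 and 0.349% in mdx/Runx1f/f 2.

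The animal numbers fall into 2 series, and the higher pair of mdx libraries, 373 and 375, is in the later one with mdx/Runx1f/f 3. What the series stands for is not given. Within animals 358 to 363 (2 libraries of each label) the median log2 fold change of the members was -0.27, with 76 of 82 below 0. Within animals 373 to 375 (2 labelled mdx and 1 labelled mdx/Runx1f/f) it was -0.40, with 79 of 82 below 0.

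**Figure D2:**
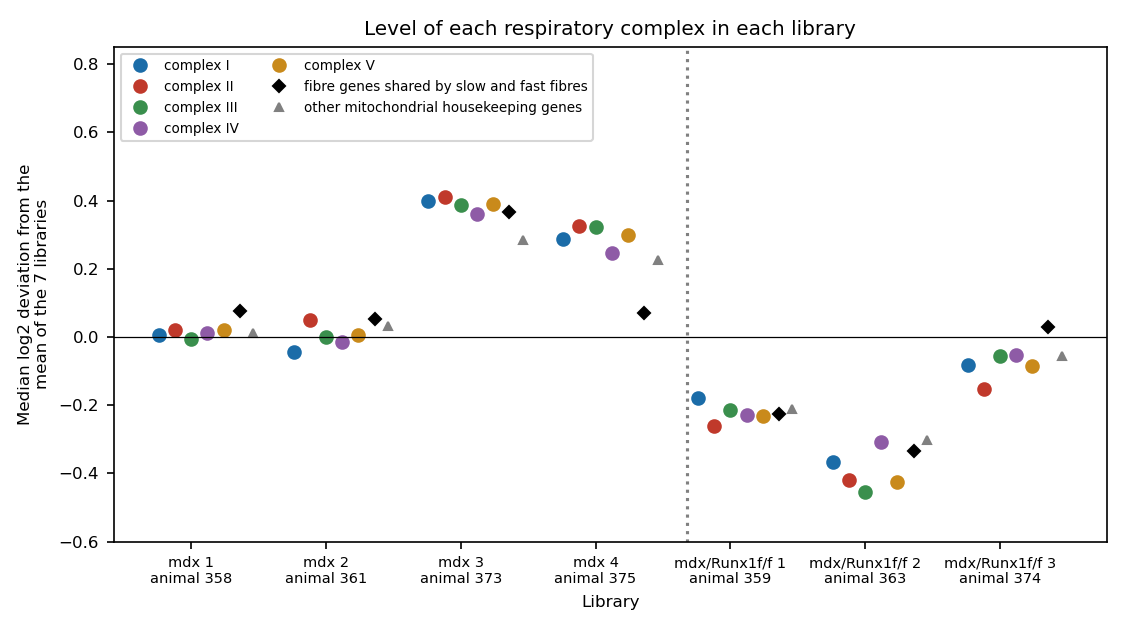
Median log2 deviation of each complex from its mean over the 7 libraries (vertical axis), by library; coloured circles are complexes I to V, diamonds are fibre genes shared by slow and fast fibres and triangles are other mitochondrial housekeeping genes. The circles of each library lie close together, highest in mdx 3 and lowest in mdx/Runx1f/f 2.

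Complex I oxidises NADH. All 37 members were tested, 36 had a log2 fold change below 0, and the median was -0.38. edgeR called 0, with 23 lower at an unadjusted p below 0.05, and DESeq2 called 10 lower. The groups did not overlap for 19 of 37. Among the structural parts of the complex, the 8 members assigned here to the N module, which takes electrons from NADH, had a median of -0.42. Of those 8, 6 had groups that did not overlap. The 5 members assigned to the Q module, which reduces ubiquinone, had a median of -0.37, and 3 of the 5 had groups that did not overlap. The 12 members of the b and c series, which build the membrane arm, had a median of -0.35, and 4 of the 12 had groups that did not overlap. A further 10 members of the a and s series, Ndufa9 among them, were not assigned to a module and had a median of -0.37. The N and Q module lists may therefore be incomplete. These differences between modules were not tested. Within animals 358 to 363 the medians were -0.24 for the whole complex, -0.29 for the N module, -0.18 for the Q module and -0.21 for the membrane arm, and within 373 to 375 they were -0.40, -0.44, -0.43 and -0.43.

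Ndufs1, which carries iron-sulphur clusters of the N module, had the lowest value of complex I. It stood at 9971, 10654, 12589 and 12541 normalised counts in mdx 1 to 4 and at 8411, 6619 and 8916 in mdx/Runx1f/f 1 to 3. All 3 of the latter lay below the lowest of the former. Its log2 fold change was -0.51 ± 0.16 (SE, edgeR, adjusted p = 0.080). Ndufv1, the flavoprotein that binds NADH, had a value of -0.46 ± 0.15 (SE, edgeR adjusted p = 0.0853), again with groups that did not overlap.

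Ndufb5 and Ndufc1, small membrane arm subunits, had the values of complex I nearest to 0 on the lower side, at -0.16 ± 0.17 and -0.19 ± 0.19 (SE). Ndufa4, named as a complex I gene but now counted with complex IV, stood at 73.9% of its mdx level, while its paralog Ndufa4l2, a gene known to be induced by low oxygen, had the highest value of the complex I names at 0.05 ± 0.17 (SE, edgeR adjusted p = 0.862).

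Complex II oxidises succinate to fumarate and belongs to both the chain and the citric acid cycle. It had the lowest median of the 5 complexes, -0.48, and each of its 4 members had groups that did not overlap. edgeR called 0 of 4, all 4 had an unadjusted p below 0.05, DESeq2 called 3 lower, and the authors' deposited table has all 4 lower. No test set complex II against the other complexes.

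Sdha, the flavoprotein that oxidises succinate, had the lowest value of all 82 members. It stood at 20572, 23575, 27968 and 27336 normalised counts in mdx 1 to 4 and at 16334, 14833 and 18038 in mdx/Runx1f/f 1 to 3. The highest of the latter lay below the lowest of the former. Its log2 fold change was -0.59 ± 0.16 (SE, edgeR adjusted p = 0.0647), a level 1.51-fold lower.

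Sdhb, the iron-sulphur subunit, stood at 10484, 10333, 13302 and 12517 in mdx 1 to 4 and at 8743, 7515 and 9154 in mdx/Runx1f/f 1 to 3 (log2 fold change -0.45 ± 0.14, SE, edgeR adjusted p = 0.0887). The membrane anchor Sdhc stood at 7265, 7254, 9304 and 8582 against 5576, 5214 and 6199 (-0.51 ± 0.13, SE, edgeR adjusted p = 0.0584). The other anchor, Sdhd, stood at 6691, 6695, 8606 and 8538 against 5936, 5161 and 6292 (-0.39 ± 0.15, SE, edgeR adjusted p = 0.124). All 4 transcripts thus had the same order of groups, with mdx 3 highest and mdx/Runx1f/f 2 lowest in each.

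Complex III carries electrons from ubiquinol to cytochrome c. Of its 10 members 9 had a log2 fold change below 0, with a median of -0.39. edgeR called 0, 7 had an unadjusted p below 0.05, DESeq2 called 3 lower, and the groups did not overlap for 6. Its core proteins, which do not carry electrons, had the lowest values. Uqcrc1 stood at 16288, 17528, 23451 and 22347 normalised counts in mdx 1 to 4 and at 14250, 11568 and 14225 in mdx/Runx1f/f 1 to 3, with no overlap. Its log2 fold change was -0.57 ± 0.18 (SE, edgeR adjusted p = 0.0867). Uqcrc2 had a value of -0.49 ± 0.17 (SE, edgeR adjusted p = 0.103).

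Of the electron carriers in complex III, the Rieske iron-sulphur protein Uqcrfs1 had a log2 fold change of -0.46 ± 0.17 (SE) and cytochrome c1, Cyc1, of -0.41 ± 0.17. Cyc1 was at 10278, 8495 and 11420 normalised counts in mdx/Runx1f/f 1 to 3, the last of which lay above mdx 1 at 11256. The row named Uqcr is an older symbol of Uqcr11 in RefSeq and held 12.7 to 25.4 normalised counts in the libraries labelled mdx and 15.2 to 29.4 in the others. Its value of 0.23 ± 0.35 (SE) was within its error of 0, while the row named Uqcr11 had -0.38 ± 0.19 (SE), with a mean of 206 normalised counts under the mdx label and 158 under the other.

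Complex IV reduces oxygen. Of its 16 tested members 14 had a log2 fold change below 0, with a median of -0.34, the nearest to 0 of the 5 complexes. edgeR called 0, 10 had an unadjusted p below 0.05, DESeq2 called 5 lower (Cox5a, Cox6a2, Cox6c, Cox7b and Cox8b), and the groups did not overlap for 9. The spread between members was the widest of the 5, from -0.53 for Cox7a1 to 0.31 for Cox6a1. Of the single-form subunits, Cox7b had -0.48 ± 0.13 (SE, edgeR adjusted p = 0.0598) and Cox5a had -0.49 ± 0.14 (SE, edgeR adjusted p = 0.0721). Cox7a2l, which joins complexes III and IV into supercomplexes, had -0.10 ± 0.08 (SE) and groups that overlapped.

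Grouped by where an isoform is known to be used, the muscle and heart forms Cox6a2, Cox7a1 and Cox8b had a median log2 fold change of -0.53, and the forms of most other tissues, Cox6a1, Cox7a2 and Cox8a, had 0.15. The latter median was 0.31 within animals 358 to 363 and -0.03 within 373 to 375, where the former stayed below 0 in both (-0.46 and -0.47). Cox6a2 stood at 19063, 16988, 21666 and 18239 normalised counts in mdx 1 to 4 and at 12050, 13295 and 15340 in mdx/Runx1f/f 1 to 3. These groups did not overlap (log2 fold change -0.48 ± 0.15, SE, edgeR adjusted p = 0.0799). Its partner Cox6a1 stood at 493, 512, 495 and 647 in mdx 1 to 4 and at 687, 737 and 564 in mdx/Runx1f/f 1 to 3. These overlapped through mdx 4 (0.31 ± 0.14, SE, edgeR adjusted p = 0.175).

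Cox8b stood at 7648, 6792, 9601 and 8518 normalised counts in mdx 1 to 4 and at 5459, 4968 and 6447 in mdx/Runx1f/f 1 to 3, without overlap (log2 fold change -0.53 ± 0.16, SE, edgeR adjusted p = 0.0752). Cox8a, its partner, stood at 528, 501, 537 and 658 against 626, 641 and 580 (0.15 ± 0.11, SE, edgeR adjusted p = 0.396). Here mdx 4 was the highest of the 7 libraries. Cox7a1 stood at 5066, 4598, 7272 and 6831 against 3917, 3276 and 5076, and mdx/Runx1f/f 3 lay within the range of the libraries labelled mdx (-0.53 ± 0.21, SE, edgeR adjusted p = 0.148). Cox7a2, its partner, had -0.31 ± 0.12 (SE, edgeR adjusted p = 0.146), so this pair had values on the same side of 0.

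The ratio of both forms within a library does not depend on the depth or normalisation of that library. The Cox6a2 to Cox6a1 count ratio was 38.6, 33.2, 43.8 and 28.2 in mdx 1 to 4 and 17.5, 18.025 and 27.2 in mdx/Runx1f/f 1 to 3. All 3 of the latter were below the lowest of the former, by a narrow gap between mdx/Runx1f/f 3 and mdx 4. The difference in the log2 ratio was -0.79 (two-sided exact permutation p = 0.0286, adjusted over 7 pairs 0.10), and 0.0286 is the smallest p that the 35 splits of 7 libraries allow. It was -1.01 within animals 358 to 363 and -0.37 within 373 to 375. Per kilobase of annotated exon the ratio ran from 23.7 to 36.8 in the libraries labelled mdx and from 14.7 to 22.8 in the others.

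The Cox8b to Cox8a count ratio was 14.5, 13.5, 17.9 and 12.9 in mdx 1 to 4 and 8.72, 7.75 and 11.1 in mdx/Runx1f/f 1 to 3, again with no overlap. Its log2 difference was -0.68 (two-sided exact permutation p = 0.0286, adjusted 0.10). Ndufa4 against Ndufa4l2 had a log2 difference of -0.49 (exact permutation p = 0.0571, adjusted 0.13), with no overlap of the groups. For the other pairs the groups overlapped. The log2 difference was -0.22 for Cox7a1 against Cox7a2 (exact permutation p = 0.20, adjusted 0.35), -0.04 for Cox4i1 against Cox4i2 (exact p = 0.80, adjusted 0.91), 0.19 for Cox6b1 against Cox6b2 (exact p = 0.86, adjusted 0.91) and 0.01 for the c ring genes Atp5g1 against Atp5g3 (exact p = 0.91, adjusted 0.91). No pair passed the threshold after adjustment over the 7 pairs. Cox4i2, a form known from lung, and Cox6b2, a form known from testis, were at 52.9 to 104.6 and at 1.96 to 17.7 normalised counts, so the ratio with Cox6b2 rests on few counts.

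**Figure D3:**
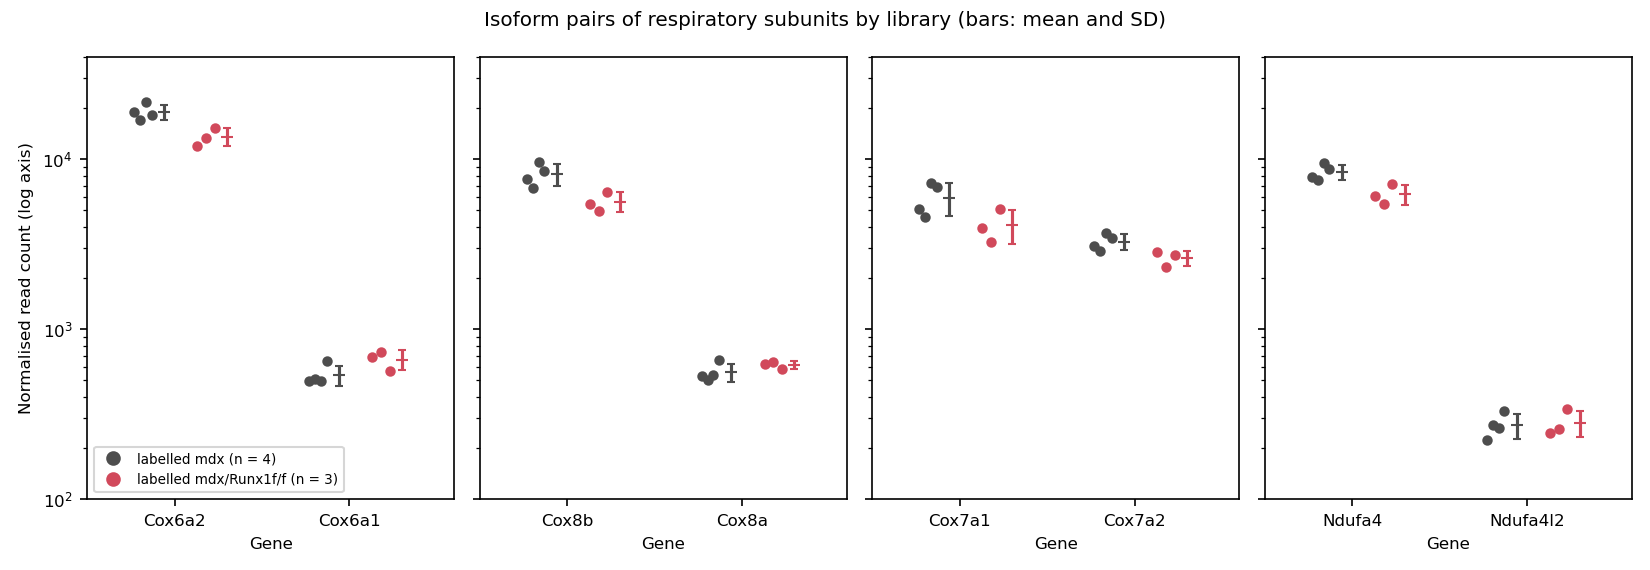
Normalised read count (log axis) of both genes of 4 isoform pairs in each library, with the mean and SD of the group beside the points. The muscle forms Cox6a2 and Cox8b are lower in all 3 libraries labelled mdx/Runx1f/f than in any labelled mdx, while the points of Cox6a1, Cox8a and Ndufa4l2 overlap between groups.

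Complex V makes ATP. All 15 tested members had a log2 fold change below 0, in the narrow range of -0.52 to -0.31, with a median of -0.40. These 15 include Atp5s and Atp5sl, which are not regarded here as subunits. edgeR called 0, 10 had an unadjusted p below 0.05, DESeq2 called 7 lower, and the groups did not overlap for 9. Atp5b, the catalytic beta subunit, was the most abundant member by normalised count and also per kilobase of exon. It stood at 67252, 71753, 90226 and 86297 normalised counts in mdx 1 to 4 and at 54709, 47805 and 61115 in mdx/Runx1f/f 1 to 3. The groups did not overlap (log2 fold change -0.52 ± 0.20, SE, edgeR adjusted p = 0.128), a level 1.44-fold lower.

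Atp5a1, the alpha subunit of the same catalytic head, averaged 64537 ± 10193 normalised counts (SD, n = 4) under the mdx label and 46668 ± 4833 (SD, n = 3) under the other. Its value was -0.46 ± 0.20 on the log2 scale (SE, edgeR adjusted p = 0.163). Among the members of the peripheral stalk, which holds the head still, Atp5o had -0.47 ± 0.15 (SE, edgeR adjusted p = 0.0849) and Atp5h -0.46 ± 0.13 (SE, edgeR adjusted p = 0.0664). Atp5d, the delta subunit of the central stalk, was the complex V member nearest to 0. It stood at 5056, 5066, 7160 and 7012 in mdx 1 to 4 and at 5311, 4237 and 5077 in mdx/Runx1f/f 1 to 3, which overlapped (-0.31 ± 0.17, SE, edgeR adjusted p = 0.269). Of the c ring genes, Atp5g3 had -0.40 ± 0.19 and Atp5g1 -0.40 ± 0.15 (SE), both with overlapping groups.

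**Figure D4:**
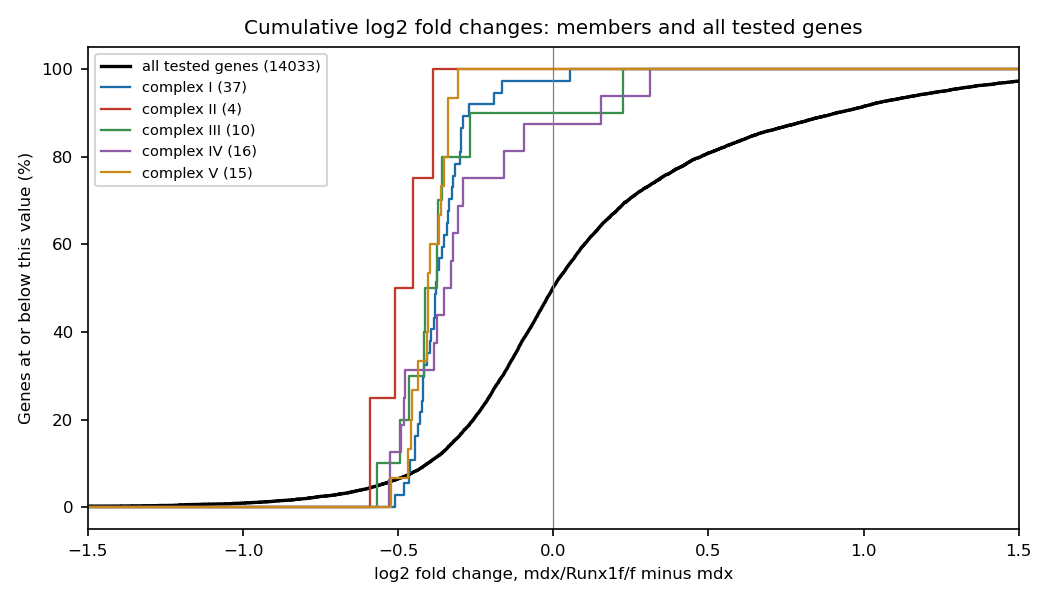
Share of genes (vertical axis, percent) at or below each log2 fold change (horizontal axis, libraries labelled mdx/Runx1f/f minus mdx) for the members of each complex and for all 14033 tested genes. The curves of the 5 complexes climb steeply between -0.6 and -0.25, while the curve of all genes passes 0 at about its middle and spreads far to both sides.

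Several names matched by the rule are not those of subunits, and some counts are uncertain. Cox4nb is Emc8, a part of a membrane protein complex. Atp5s and Atp5sl are now named Dmac2l and Dmac2 and are not regarded here as ATP synthase subunits. The rule matched their names, so both are included in the complex V counts above. For both the groups did not overlap and the unadjusted edgeR p was below 0.05, and DESeq2 called 1 of the 2 lower, Atp5sl. Atp5s and Atp5sl had log2 fold changes of -0.34 ± 0.14 and -0.37 ± 0.11 (SE), inside the range of the other members of complex V. In the GENCODE transcripts used for lengths, 84.8% of the 50-base stretches of Atp5l also occur in transcripts of 14 other genes. The same share was 47.9% for Atp5h, 43.4% for Uqcrb, 37.0% for Ndufb4 and 27.9% for Cox7c. It was 39.7% for Ndufs3, 38.7% for Atp5f1, 34.1% for Ndufb6 and 34.0% for Atp5o. Cox5a had 32.0%, Ndufs5 31.1% and Ndufa13 28.5%, and further members had smaller shares above 0. How the authors treated reads that match more than 1 place is not given, so the levels of these genes, and the 0 listed for Atp5g2, are uncertain.

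The promoters of members were compared by sequence, since members had similar fold changes. RefSeq (GRCm38.p6) holds a start for 69 of the 87 members, and the 250 bases before it were searched on both strands. NRF1, an activator of many respiratory genes, has a motif of GCGC, any base and TGCGC in a row, which was found for 13 of 69 members (18.8%) against 4.23% of 27025 genes. The motif CCGGAAG of the ETS family, which GABPA binds, was found for 12 (17.4%) against 7.83%. CAAGGTCA, bound by ERR alpha, was found for 3 (4.35%) against 1.51%, AAGATGGC, bound by YY1, for 2 (2.90%) against 1.83%, and TGTGGTT, bound by RUNX factors, for 1 (1.45%, Uqcr11) against 5.08%. The 27025 genes were not limited to the 14033 tested here, and the differences in these shares were not tested. A match is a run of letters in this window and does not show binding.

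Members with and without such a match had nearly the same values. The median log2 fold change was -0.39 for the 12 tested members with an NRF1 match and -0.38 for the 54 without. It was -0.37 for the 11 with an ETS match and -0.38 for the 55 without. The sequences below show the contrast at the extremes of the values: Sdha, the lowest member, and Cox6a1, the highest, both hold NRF1 matches, while the muscle form Cox8b and its partner Cox8a hold none of the 5 motifs. Each is the 250 bases before the start, 5′ to 3′ on the strand of the gene, with motif matches in capitals. Those of Sdha (chr13:74350241-74350490, minus strand) begin 98, 55 and 10 bases before the start, all NRF1. Those of Cox6a1 (chr5:115348959-115349208, minus strand) begin 162 and 117 bases before it (NRF1) and 16 bases before it (ETS). Cox8b lies at chr7:140900447-140900696 and Cox8a at chr19:7217617-7217866, both on the minus strand.
Sdha: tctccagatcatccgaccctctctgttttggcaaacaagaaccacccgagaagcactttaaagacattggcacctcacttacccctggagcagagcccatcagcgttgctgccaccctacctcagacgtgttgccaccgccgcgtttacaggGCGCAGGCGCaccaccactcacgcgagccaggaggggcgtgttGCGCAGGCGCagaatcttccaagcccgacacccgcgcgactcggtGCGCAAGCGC
Cox6a1: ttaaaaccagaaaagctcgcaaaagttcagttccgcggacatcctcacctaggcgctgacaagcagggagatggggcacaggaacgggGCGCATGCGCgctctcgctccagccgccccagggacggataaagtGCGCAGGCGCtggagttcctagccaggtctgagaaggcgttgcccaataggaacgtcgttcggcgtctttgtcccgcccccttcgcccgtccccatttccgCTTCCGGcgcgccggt
Cox8b: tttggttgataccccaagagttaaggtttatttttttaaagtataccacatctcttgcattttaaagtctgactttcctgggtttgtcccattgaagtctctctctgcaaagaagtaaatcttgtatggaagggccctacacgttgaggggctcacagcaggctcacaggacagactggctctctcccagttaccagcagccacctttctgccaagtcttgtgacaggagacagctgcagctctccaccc
Cox8a: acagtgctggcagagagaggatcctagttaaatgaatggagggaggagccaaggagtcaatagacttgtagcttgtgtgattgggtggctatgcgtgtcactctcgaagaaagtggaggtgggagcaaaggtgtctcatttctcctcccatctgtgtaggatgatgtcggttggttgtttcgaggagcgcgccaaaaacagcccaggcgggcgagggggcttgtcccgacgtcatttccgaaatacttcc

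Lists of genes that build the complexes had medians below 0 as well. Over all tested genes edgeR called 1.85% lower. Of 9 complex I assembly factors 1 was called lower, Ecsit, at 1730, 1704, 2152 and 1896 normalised counts in mdx 1 to 4 and 1396, 1325 and 1365 in mdx/Runx1f/f 1 to 3 (log2 fold change -0.45 ± 0.10, SE, edgeR adjusted p = 0.0434). The list had a median of -0.39. The call was lost without any 1 of the 7 libraries (edgeR adjusted p 0.0530 to 0.136), without the filter on low counts and with a block for the replicate number. Of 12 complex IV assembly factors 1 was called lower, Cox15, which makes haem a, at 1245, 1279, 1326 and 1374 against 981, 888 and 1060 (-0.41 ± 0.09, SE, edgeR adjusted p = 0.0400). The median of that list was -0.27. The Cox15 call held without mdx/Runx1f/f 3 and was lost without any other library (edgeR adjusted p up to 0.121) and with the replicate block.

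In the lists for complexes II, III and V edgeR called 0 of 3, 0 of 4 and 0 of 4 assembly and inhibitory factors, while DESeq2 called 0 in each. At an unadjusted p below 0.05, 0, 0 and 1 were lower in these lists, against 12.4% of all tested genes. Their medians were -0.21, -0.27 and -0.28, and the members with the smallest p were Sdhaf2 at -0.28 ± 0.13, Ttc19 at -0.30 ± 0.13 and Tmem70 at -0.42 ± 0.16 (SE). Atpif1, the inhibitor of ATP synthase when it runs backwards, had a value of 0.24 ± 0.10 (SE, edgeR adjusted p = 0.163), with groups that did not overlap. It was chosen after its values were seen. Within animals 358 to 363 the medians of the assembly lists of complexes I, II, III and V were -0.25, -0.11, -0.14 and -0.16, and within 373 to 375 they were -0.47, -0.35, -0.28 and -0.25. Of 4 further genes outside the name patterns (Ndufab1, cytochrome c Cycs, 2010107E04Rik and Usmg5, which belongs to complex V) edgeR and DESeq2 called 0. At an unadjusted p below 0.05, 2 of these 4 were lower, against 12.4% of all tested genes. Usmg5 had the smallest p of these (-0.44 ± 0.15, SE, edgeR adjusted p = 0.0970).

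Of the subunits encoded in mitochondrial DNA, mt-Nd4 was the gene of the list found in the table. It stood at 182740, 179520, 213860 and 198910 normalised counts in mdx 1 to 4 and at 211590, 146650 and 160750 in mdx/Runx1f/f 1 to 3. The library mdx/Runx1f/f 1 lay near the top of the mdx range, and the groups overlapped. The log2 fold change was -0.15 ± 0.24 (SE, edgeR adjusted p = 0.703). It was -0.33 without mdx/Runx1f/f 1 and -0.05 without mdx/Runx1f/f 2, and -0.03 within animals 358 to 363 against -0.35 within 373 to 375.

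Of 16 tested regulators of respiratory genes edgeR called 0, and the median was -0.23. At an unadjusted p below 0.05, 5 were lower, against 12.4% of all tested genes. DESeq2 called 1 of the 16 lower (6.25%), near the 5.95% of its tested genes. Ppara, a receptor that drives fatty acid oxidation genes, had the smallest p, with 1474, 1193, 952 and 934 normalised counts in mdx 1 to 4 and 454, 867 and 601 in mdx/Runx1f/f 1 to 3 (-0.82 ± 0.24, SE, edgeR adjusted p = 0.0746). Ppargc1a, the coactivator of mitochondrial biogenesis, was listed at 0 counts in all 7 libraries. The annotation used for counting is not given, so this 0 does not show that the gene was silent. Among 18 other mitochondrial housekeeping genes edgeR called 0. At an unadjusted p below 0.05, 10 were lower, against 12.4% of all tested genes, and DESeq2 called 7 lower, against 5.95% of its tested genes. The median of that list was -0.30, and Vdac1, the main channel of the outer membrane, had the smallest p (-0.55 ± 0.15, SE, edgeR adjusted p = 0.0658).

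Levels of fibre genes and of markers of other cells were measured in the same libraries. In whole muscle, fewer cells of a type and less RNA per cell cannot be told apart. Genes shared by slow and fast fibres had a median log2 fold change of -0.31, with 14 of 15 below 0, and edgeR called 0. At an unadjusted p below 0.05, 4 were lower, against 12.4% of all tested genes, and DESeq2 called 4 lower, against 5.95% of its tested genes. The summed level of these genes ran from 103400 to 126690 CPM (counts scaled to library size) in the libraries labelled mdx and from 81291 to 102210 in the others, without overlap. The summed level of the 82 members ran from 28960 to 37847 CPM and from 21248 to 26971, also without overlap. Slow fibre markers had a median of -1.02, with 9 of 9 below 0, and edgeR called 0. At an unadjusted p below 0.05, 6 were lower, against 12.4% of all tested genes, and DESeq2 called 3 lower, against 5.95% of its tested genes. The slow marker median was -1.67 within animals 358 to 363 and -0.45 within 373 to 375. Fast fibre markers had a median of 0.23, with 0 of 12 called by edgeR. At an unadjusted p below 0.05, 2 were higher, a share near the 17.1% of all tested genes. DESeq2 called 1 of the 12 higher, where it called 1484 of its 14808 tested genes higher. The direction of the fast marker median differed between the series of animal numbers. That median was 0.64 within 358 to 363 and -0.58 within 373 to 375, where 11 of 12 were below 0.

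The slow markers and the members did not follow the same order of libraries. The summed slow marker level was 50622, 48960, 52142 and 31299 CPM in mdx 1 to 4 and 8536, 28952 and 27753 in mdx/Runx1f/f 1 to 3. The library mdx 4 was thus the lowest of its label in slow markers and, by CPM, the second highest of all in the members. mdx/Runx1f/f 1 was the lowest of all in slow markers, while mdx/Runx1f/f 2 was the lowest in the members.

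Of 13 matrix and fibro-adipogenic progenitor markers 12 were called higher by edgeR, with a median log2 fold change of 1.35, and their summed level ran from 3170 to 5086 CPM in the libraries labelled mdx and from 10040 to 13131 in the others. Of 17 macrophage markers 5 were called higher, with a median of 1.61 and a summed level of 224 to 1059 against 913 to 2694 CPM. Of 8 adipocyte markers 4 were called higher (median 2.22, summed level 334 to 453 against 436 to 803 CPM), and Ucp1 was at 0. Of 6 Schwann cell markers 2 were called higher (median 0.65, 133 to 176 against 229 to 252 CPM), and of 7 endothelial markers 1 was (median -0.02, 552 to 1014 against 636 to 893 CPM). Of 7 markers of regenerating fibres and myoblasts edgeR called 0 (median 0.75, 268 to 629 against 374 to 1021 CPM). At an unadjusted p below 0.05, 4 of these were higher, against 17.1% of all tested genes. DESeq2 called 1 of the 7 higher, where it called 1484 of its 14808 tested genes higher. For all of these lists, the share of all tested genes called higher by edgeR was 5.1%. Within animals 358 to 363 and within 373 to 375 the medians were 1.17 and -0.07 for the regenerating fibre markers, 1.21 and 3.31 for adipocyte markers, and 0.11 and 0.25 for endothelial markers. The part of these shifts in the values of the respiratory members was not tested.

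**Figure D5:**
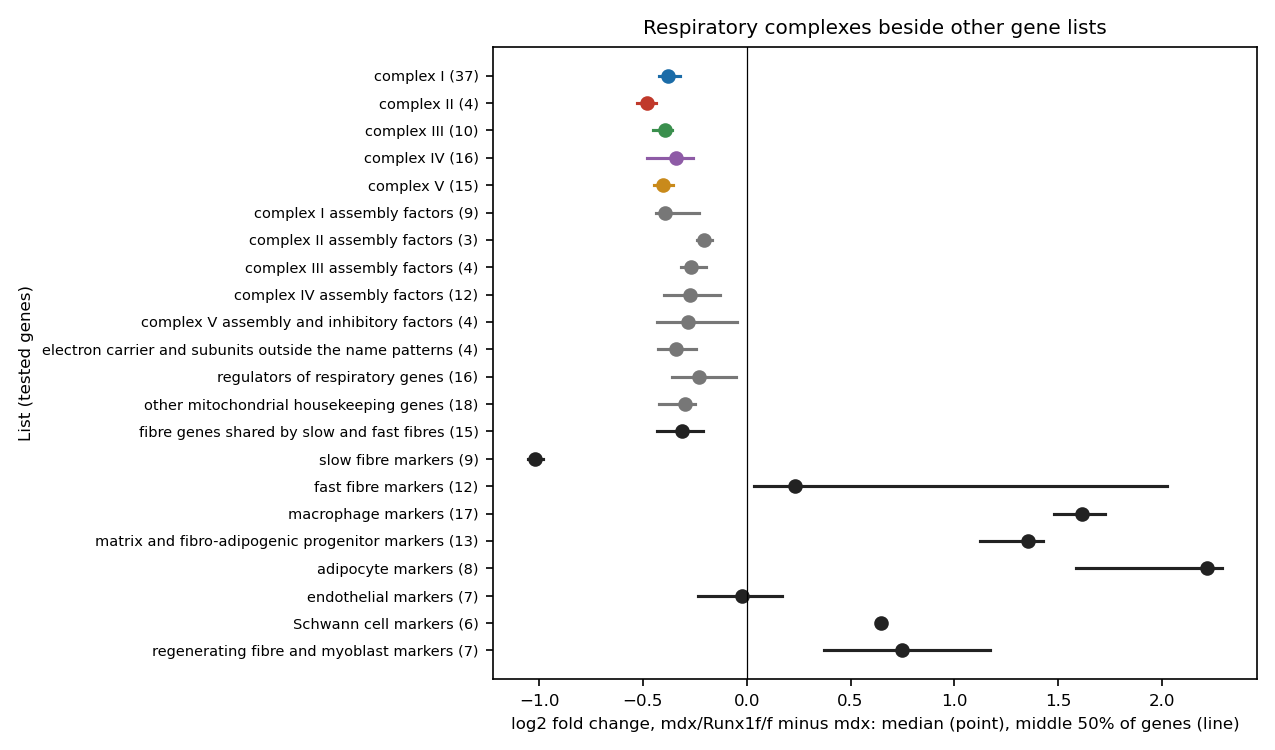
Median log2 fold change (point, libraries labelled mdx/Runx1f/f minus mdx) and the middle 50% of genes (line) for the 5 complexes, the lists of genes related to them and the marker lists, with the number of tested genes in brackets. The complexes, assembly factors, housekeeping genes and shared fibre genes lie between -0.5 and -0.2, slow fibre markers near -1.0, and markers of matrix, macrophages and adipocytes above 1.3.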

How the data were processed

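Members and gene lists were chosen with earlier results of these data known. The authors deposited 1 table for the 7 libraries, with read counts per gene made with TopHat2 2.0.10 and HTSeq on mm9, per the submitters' processing notes. It also holds normalised counts, which are the counts after the authors divided each library by its size factor (a signal in count units), and the authors' log2 fold changes with p-values and adjusted p-values, per the file headers. The notes name DESeq2 1.6.3. The sources used here do not give strand, annotation or the treatment of reads that match several places. Column headings hold animal numbers, and the sample titles, which name 7 animals, gave each one its group. The authors' fold changes had the sign of the titles' grouping in 99.8% of 11355 genes with a mean of at least 50.

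Raw counts were tested with edgeR 4.0.16 in R 4.3.3 (TMM, filterByExpr, quasi-likelihood test, group as the only term, Benjamini-Hochberg adjustment over 14033 genes, called at an adjusted p below 0.05). Normalised counts in the text are the authors', and a gene's level in percent is the ratio of their group means, while that of the median member comes from the median edgeR log2 fold change. DESeq2 1.42.0 and limma 3.58.1 (voom) were alternatives, with another normalisation, no filter, a replicate block, a covariate for the animal number series, and each library left out. Isoform ratios (0.5 added to each count) were compared by exact permutation. Tested on simulated data, in which 200 of 14033 genes were changed (each with a mean of at least 1000 normalised counts), 6.4% of the edgeR calls were false. Every pair of libraries differed by more than sampling noise (chi-square per degree of freedom at least 15.8). Exon lengths came from GENCODE transcripts and promoters from RefSeq, neither of which is the build of the files, and no coordinates were moved between builds.

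By rule the text names in each complex the members with the highest and lowest log2 fold change and the highest mean, all genes of the isoform pairs, and in each related list the called genes or the gene with the smallest p. The values of 1 member are not reported here. Other members named were chosen after their values were seen.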

Additional observations from a re-analysis of the deposited data

Results flagged for a closer look

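In 99 sets of 4 libraries labelled mdx, a library was looked for that stands apart from the other 3, for each member and each library median. Chance gives about 1 in 20 such sets, and 4 were found. Cox6a1 stood at 646.6 normalised counts in mdx 4, where the next highest was 511.7. Cox6c stood at 4010.1 in mdx 3, where the next highest was 3552.9. The median deviation of the fibre genes shared by slow and fast fibres was 0.37 on the log2 scale in mdx 3, where the next highest was 0.08. That of the slow fibre markers was -0.0257 in mdx 4, where the other 3 libraries were at 0.69 or above. Groups of 3 libraries were not examined in this way.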

How the results depend on the processing

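The median log2 fold change of each complex stayed below 0 under every alternative run. Without 1 library at a time it ran from -0.45 to -0.28 for complex I and from -0.56 to -0.41 for complex II. For complexes III, IV and V it ran from -0.52 to -0.30, from -0.47 to -0.27 and from -0.51 to -0.31. Counts of calls differed between runs. With DESeq2 the counts over all genes were 1484 higher and 881 lower, and 10, 3, 3, 5 and 7 members of complexes I to V were lower. With a covariate for the animal number series they were 1246 and 582, with 6, 2, 5 and 2 members of complexes I, II, IV and V lower. With the replicate block they were 240 and 80, with no member called. Without 1 library at a time they ran from 173 to 641 higher and from 17 to 209 lower. Then 0 to 1 members were lower in complex I (Ndufb3) and 0 to 1 in complex IV (Cox6c), each called only without mdx/Runx1f/f replicate 3. The cause of these differences was not tested.

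Deviations of libraries with the same replicate number correlated at -0.007, 0.241 and 0.275 over 14033 genes. The library mdx 1 correlated best with mdx/Runx1f/f 2 (0.506), while mdx 2 and mdx 3 correlated best with the library of their own number. Deviations within a group sum to 0 and constrain each other, so these values cannot decide whether the numbers pair the animals. With the replicate block the Atp5g1 to Atp5g3 difference was -0.00844.

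Small isoform differences changed sign. Cox4i1 to Cox4i2 was 0.088 within animals 358 to 363. Cox6b1 to Cox6b2 was -0.0215 with 5 counts added and -0.234 within 373 to 375, where Atp5g1 to Atp5g3 was -0.0749. Cox6a2 to Cox6a1 kept its sign there but was smaller, at -0.370. Without 1 library at a time the differences ran from -0.20 to 0.057 for Cox4i1 to Cox4i2, from -0.60 to 0.59 for Cox6b1 to Cox6b2, from -0.041 to 0.076 for Atp5g1 to Atp5g3, and the log2 fold changes from -0.67 to 0.16 for Cox6b2, from -0.11 to 0.16 for Ndufa4l2 and from -0.047 to 0.45 for Uqcr. Cox6b2 and Uqcr rest on few counts.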
